A study of Mus musculus with 4 samples.

Results

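Long intergenic non-coding RNA (lincRNA) genes were examined among the genes listed as changed after Mrhl was targeted in mouse embryonic stem cells. They were taken as the distinct gene symbols that carry the gene type lincRNA in the authors' tables of lower and higher genes, with Six3os1 left out. This gave 94 genes among 1132 distinct symbols. The cells were E14tg2a, an established embryonic stem cell line of strain 129/Ola, grown on gelatine in medium with serum. They were transfected for 48 hours with a scrambled shRNA (group scrambled, 2 libraries) or with shRNA 4 against Mrhl (group sh-Mrhl, 2 libraries). A label field names a lentivirus, whereas the treatment protocol describes transient transfection. No genotype, clone or age separates the groups, and only 1 shRNA against Mrhl was used.

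LincRNA genes are transcribed, spliced and polyadenylated much like messenger RNA genes but encode no known protein, and most are expressed at low and cell-type-restricted levels. Many start beside a protein-coding gene and are transcribed away from it, from a shared promoter. In embryonic stem cells some are known to be needed for self-renewal or for the exit towards a lineage, acting on neighbouring genes or through chromatin-modifying complexes. Mrhl is itself a long non-coding RNA of the nucleus, and its gene lies in an intron of Phkb.

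Each gene has 1 signed fold-change value, negative where it was lower in sh-Mrhl, and the scale of the value (log2 or linear) is not stated. The tables analysed hold no value per library, no count and no p-value. The depth is unknown, no value has a replicate error, no test across libraries was possible, and lower and higher refer to the table in which the authors placed a gene. Being listed is what chose these genes, so their directions and sizes are given as a description. In bulk RNA, fewer cells of a type and less RNA per cell cannot be told apart. None of 7 embryonic stem cell markers was listed, Nanog and Esrrb among them. Only 2.51% of annotated protein-coding symbols were in either table, so such an absence says little about the cells. Without expression levels the cell type could not be checked. Of 5 fibroblast markers Col3a1 was listed as lower, at -1.69, and of 4 trophectoderm markers Hand1 was listed as lower, at -1.70 in the authors' deposited table, while none of 4 primitive endoderm markers was listed. The part of such cells in the results was not tested.

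Of the 94 lincRNA genes, 58 were listed as lower and 36 as higher in sh-Mrhl. The higher share was 38.3%, against 36.3% of all 1131 listed symbols with 1 direction, so the direction of lincRNA genes lay close to that of the tables as a whole. GENCODE M21 annotates 5847 lincRNA symbols, of which 1.57% were in either table, against 2.04% of all annotated symbols. Which genes the authors tested is not given, so these shares describe the annotation and not the tested genes.

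In the authors' deposited table the absolute value of lower lincRNA genes had a median of 2.04, with quartiles of 1.77 and 2.38 and a range from 1.51 to 3.95. The higher lincRNA genes had a median of 1.87 in the authors' deposited table, with quartiles of 1.70 and 1.95 and a range from 1.51 to 2.68. Over all listed symbols the medians in the authors' deposited tables were 1.91 for lower and 1.94 for higher genes. An absolute value of at least 2 was reached by 31 of the 58 lower genes, or 53.4%, against 44.4% of all lower symbols. It was reached by 5 of the 36 higher genes, or 13.9%, against 33.2% of all higher symbols. For comparison, 40.3% of higher protein-coding genes, 28.6% of higher antisense genes and 22.7% of higher TEC models (transcripts still to be experimentally checked) reached 2. Other classes, processed pseudogenes among them, were not summarized in this way. No lincRNA gene was among the 25 higher symbols with a value of at least 3, and 2 were among the 46 such lower symbols. From 1.9 to under 2 lay 11 of the 36 higher and 3 of the 58 lower lincRNA genes, beside 100 of all 410 higher and 49 of all 721 lower symbols, so values just under 2 were frequent among higher genes of the tables in general. These shares were not tested.

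**Figure D1:**
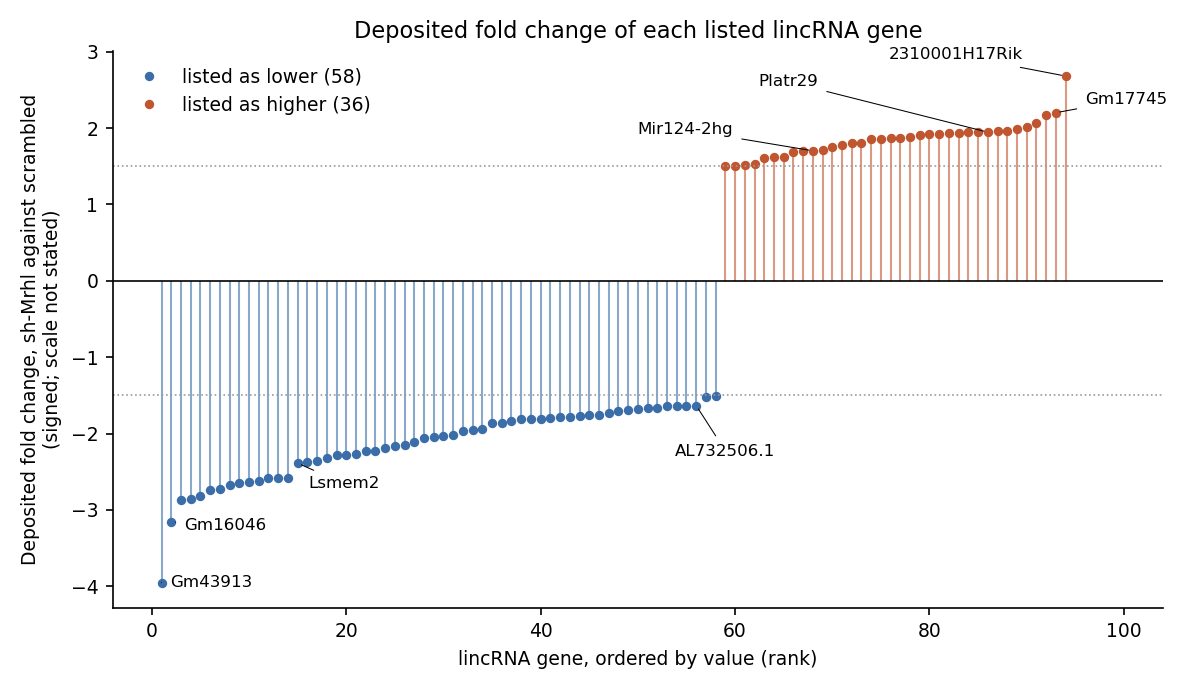
Deposited signed fold change (vertical axis, scale not stated) of each of the 94 lincRNA genes, ordered by value (horizontal axis, rank); dotted lines mark 1.5 and -1.5, between which no gene was listed. The 58 lower genes reach from -1.51 to -3.95 and the 36 higher genes from 1.51 to 2.68, and some of the genes named in the text are labelled.

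**Figure D2:**
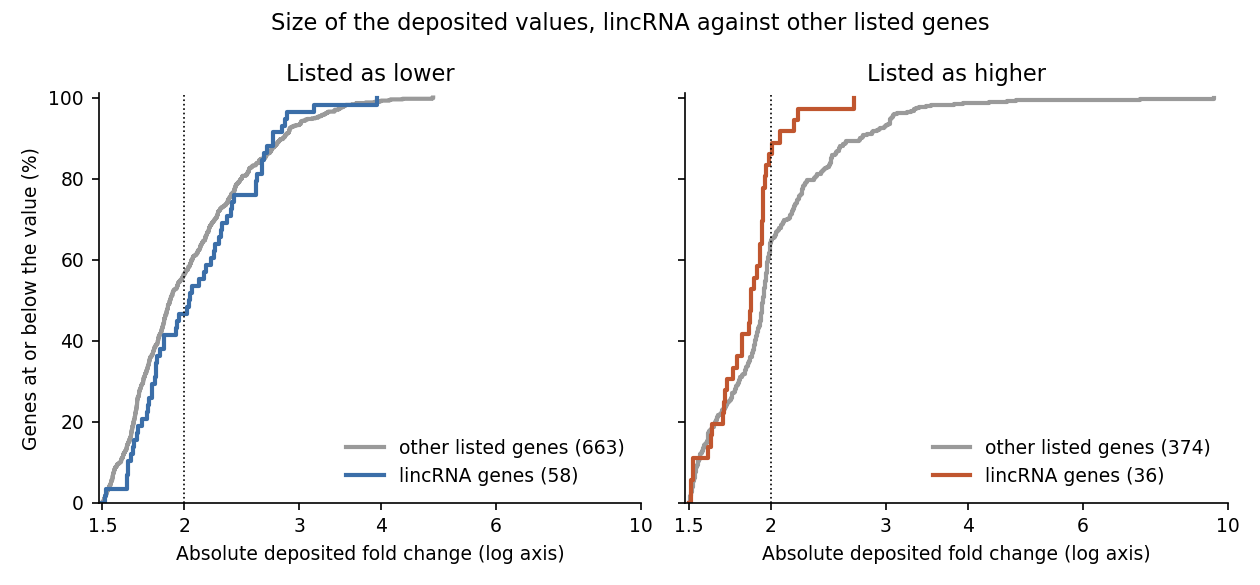
Cumulative share of genes (vertical axis, percent) against the absolute deposited fold change (horizontal log axis, scale not stated) for lincRNA genes and for all other listed genes, with lower genes on the left and higher genes on the right; the dotted line marks 2. Among higher genes the lincRNA curve ends at 2.68 and leaves 5 of 36 genes at 2 or more, while the curve of the other 374 genes runs on to 9.52.

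Only 4 of the 94 genes carry a symbol other than a gene model of the Gm, Rik or expressed-sequence kind, and 2 of these were lower and 2 higher. The lower gene AL732506.1 has a clone identifier and not a gene name, a kind of symbol that the naming rule left among the 4. Platr29, one of the pluripotency associated transcripts (a set of non-coding RNAs named for their expression in undifferentiated mouse embryonic stem cells), was listed as higher at 1.95 in the authors' deposited table. It lies on chromosome 2 from 165976757 to 165985924 on the minus strand (mm10), has 6 exon blocks and starts 6712 bases from the start of Ncoa3, a nuclear receptor coactivator gene transcribed in the opposite direction. Of 39 annotated pluripotency-associated non-coding genes on the list examined, Platr29 was the 1 lincRNA gene listed. Platr31, typed as antisense and so not counted among the 94, was lower at -1.69 in the authors' deposited table. The Platr transcripts were therefore listed in both directions.

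Mir124-2hg is a host gene of miR-124, a microRNA abundant in neurons that represses non-neuronal transcripts. It was listed as higher at 1.70 in the authors' deposited table and lies on chromosome 3 from 17789921 to 17808970 on the plus strand. The hairpin gene Mir124a-2 lies inside it on the same strand, from 17795662 to 17795770, and shares 27 bases with its exons. The value of Mir124-2hg describes the host transcript, and the mature microRNA has no value in the tables. Of 29 annotated small RNA host genes on the list examined, Mir124-2hg was the 1 listed.

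Lsmem2, a symbol that RefSeq gives to a protein-coding gene for a single-pass membrane protein, was listed as lower at -2.39 in the authors' deposited table. Its type in that table and in GENCODE M21 is lincRNA, on chromosome 9 from 107593841 to 107597075. The 1 GENCODE transcript under this symbol has 369 bases and holds no complete reading frame that starts with ATG. The last of the 4, AL732506.1, is described in the authors' deposited table as the RNA component of mitochondrial RNAse P and stood at -1.63. It has no entry under that symbol in GENCODE M21, and its position is not given here.

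Lists were matched by symbol, so a gene given under a clone identifier, such as AL732506.1, would be missed. By symbol, the remaining lists of non-coding genes held no lincRNA gene from the tables. They covered 18 annotated genes of imprinting and dosage compensation, such as Xist and Meg3, and 12 abundant nuclear RNAs, such as Malat1 and Neat1. They also covered 20 neural non-coding genes, 13 linked to mesoderm, endoderm or Hox clusters, 9 linked to immunity or stress and 3 of testis and germline. Terc, the telomerase RNA, is on the list of abundant RNAs and was lower at -1.55 in the authors' deposited table, but its type there is misc_RNA. Only 1.57% of annotated lincRNA symbols and 2.04% of all annotated symbols were in either table. Lists of this size would thus hold few listed genes or none in any case. The same holds for the lists of pluripotency-associated and small RNA host genes above. A gene missing from the tables may still have changed.

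The 90 unnamed gene models comprised 64 Gm models, 24 Rik models and 2 expressed-sequence models, and 56 of the 90 were lower. Among Gm models 40 were lower and 24 higher, and among Rik models 14 were lower and 10 higher. Lower Gm models had a median absolute value of 2.13 and lower Rik models 1.83 in the authors' deposited table.

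The most negative value belonged to Gm43913, at -3.95 in the authors' deposited table, the 8th most negative of all lower symbols. It lies on chromosome 6 from 148915215 to 148920535 on the minus strand and begins 499 bases beyond the end of Sinhcaf, a gene for a subunit of the SIN3 histone deacetylase complex, on the same strand. Gm16046 on chromosome 17 followed at -3.16 in the authors' deposited table. These were the only lincRNA genes past -3. The authors' deposited table gave -2.87 for Gm20005, which starts 5234 bases from the start of the heat shock protein gene Hsph1, and -2.86 for Gm29543, which starts 792 bases from that of the synaptic vesicle gene Sv2c. Both are transcribed away from the coding gene.

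Next came Gm20625 at -2.82 and Gm26724 at -2.73 in the authors' deposited table. Gm26724 is typed as antisense in GENCODE M21, where it overlaps the nuclear envelope gene Lemd2 on the opposite strand. 4632428C04Rik, at -2.73 in the authors' deposited table, lies on chromosome 16 from 30008667 to 30021430 and ends 42953 bases before Hes1, a Notch effector gene transcribed in the same direction. The last of the 10 most negative models were AI839979, Gm30692 and Gm12798, which the authors' deposited table put between -2.68 and -2.63. The steps between these 8 neighbours in the order, from Gm20005 down to Gm12798, were small, and without replicate errors their order cannot be ranked.

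The highest value was that of 2310001H17Rik, at 2.68 in the authors' deposited table, the 41st of all higher symbols. It lies on chromosome 6 from 129208412 to 129238725 on the minus strand, has 7 exon blocks and 7241 exonic bases, the most of any of the genes, and its nearest coding gene is Clec2d, a C-type lectin gene 21877 bases away. Gm17745 was at 2.20 in the authors' deposited table and starts 24258 bases from the ETS factor gene Elk3, transcribed the other way. The authors' deposited table gave 2.17 for Gm13056, 22801 bases before the start of the ephrin receptor gene Epha2. Gm17216 stood at 2.06 and A730036I17Rik at 2.01 in the authors' deposited table, and no other lincRNA gene reached 2. The other 5 of the 10 highest models were 4930519A11Rik, I830134H01Rik, Gm14321, Gm31693 and Gm11851, which the authors' deposited table put between 1.94 and 1.99.

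GENCODE M21 gave a locus for 93 of the 94, spread over 20 chromosomes, and typed 90 of them as lincRNA. They had a median exonic length of 1519 bases and a median of 2 exon blocks, against 1038 bases and 3 blocks over all annotated lincRNA genes. Lower and higher genes had similar medians of exonic length, 1539 and 1450 bases. A reading frame of 100 codons or more was present in 14 of 57 lower and 9 of 36 higher genes, and the longest, of 240 codons, was in Gm37233.

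For 17 of the 93 genes the nearest protein-coding start was within 1000 bases, and in 14 of these pairs the genes were divergent without overlap, 9 of them lower and 5 higher. The share of all annotated lincRNA genes that start so near a coding start was not counted. In the authors' deposited table the lower members of such pairs included 2210008F06Rik at -2.58, beside Ankrd13b, and Gm42997 at -2.58, 62 bases from the start of the ribosomal protein gene Rpl34. Gm20554 was at -2.26 in the authors' deposited table and starts 256 bases from Irx2, an Iroquois homeobox gene of patterning. A330069E16Rik was at -1.66 in the authors' deposited table and starts 164 bases from Ddb2, a DNA damage recognition gene. Among the higher members, the authors' deposited table gave 1.97 for I830134H01Rik beside Cep55, a gene of the final stage of cell division, and 1.94 for Gm42903 beside the respiratory chain gene Cox6a1. In none of the 93 cases was the nearest protein-coding gene, or the nearest protein-coding start, itself in the tables, while 2.51% of annotated protein-coding symbols were. The pairs named here and the genes named below, apart from those at either end of the order, were chosen after their values had been seen.

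**Figure D3:**
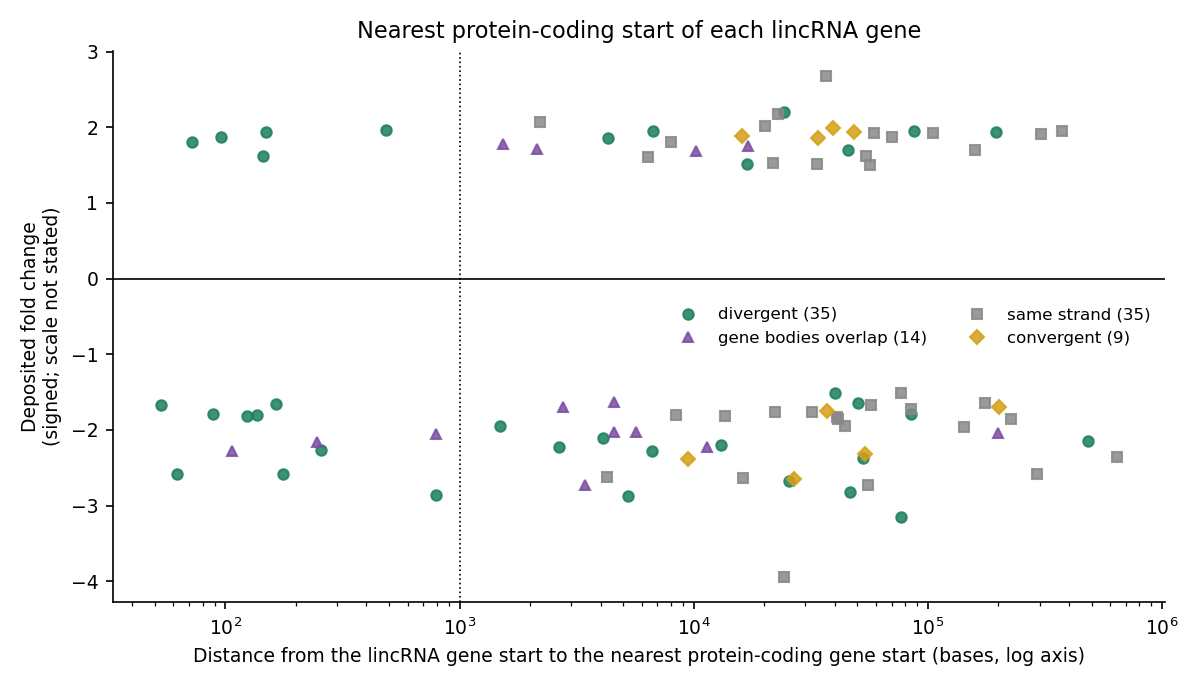
Deposited signed fold change (vertical axis, scale not stated) of 93 lincRNA genes against the distance from their start to the nearest protein-coding start (horizontal log axis, bases), with the arrangement of both genes given by colour and shape and its count in the key. The 17 genes left of the dotted line at 1000 bases lie on both sides of 0, 12 lower and 5 higher, and the gene with the lowest value lies at 24298 bases.

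RefSeq promoter sequences (GRCm38.p6, 250 bases before to 50 after the start) were found for 39 of the genes, 21 lower and 18 higher. The median GC content was 59.3% for lower and 49.8% for higher genes, against 48.7% over the first promoter of 9533 RefSeq lncRNA genes and 52.7% over 27025 genes of all kinds. By their GENCODE M21 starts, 9 genes started within 1000 bases of a coding start, with a median of 70.7% (59.3% to 78.0%). The 30 others had a median of 52.3% (35.0% to 75.7%). A GC content of at least 60% was found in 8 of the 9 and in 6 of the 30, and the ranges overlapped. RefSeq and GENCODE starts can differ, so a window need not lie at the start used to sort the gene. They lay 3919 bases apart for Gm32391 (70.3% GC) and 8439 bases apart for Gm38948 (61.7%), both among the 30 others. GGGCGG, the GC box bound by SP factors, was found on either strand in 10 of 21 lower and 4 of 18 higher promoters. It was found in 7 of the 9 promoters of genes near a coding start and in 7 of the 30 others. Direction and nearness to a coding start were not separated for GC content or GGGCGG. Over both directions GGGCGG was found in 35.9%, against 16.8% of lncRNA promoters and 35.9% of promoters of all genes. CCAAT was found in 11 of 21 lower and 8 of 18 higher promoters, against 35.9% of lncRNA promoters and 37.9% of all. TATAAA was found in 1 promoter of each direction, against 15.7% of lncRNA promoters and 14.2% of all. No motif contains another, both strands were searched, and a match is a description of the letters only.

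Promoters are shown for a divergent pair beside a patterning gene (Gm20554, chr13:72628515-72628814, minus strand), a divergent pair beside a repair gene (A330069E16Rik, chr2:91236896-91237195, plus strand), the lower gene near Hes1 (4632428C04Rik, chr16:30008417-30008716, plus strand) and a higher gene away from coding starts (A730036I17Rik, chr2:129218719-129219018, plus strand). All are read 5′ to 3′ on the gene's strand, and capitals mark any match to GGGCGG, to CCAAT and also to TATAAA on either strand.
Gm20554: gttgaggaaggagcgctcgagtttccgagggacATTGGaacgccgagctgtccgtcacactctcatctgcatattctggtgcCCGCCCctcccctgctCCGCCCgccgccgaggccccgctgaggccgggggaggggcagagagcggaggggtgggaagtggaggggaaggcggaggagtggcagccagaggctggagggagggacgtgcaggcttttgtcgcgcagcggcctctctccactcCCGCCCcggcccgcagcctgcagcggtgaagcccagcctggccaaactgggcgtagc
A330069E16Rik: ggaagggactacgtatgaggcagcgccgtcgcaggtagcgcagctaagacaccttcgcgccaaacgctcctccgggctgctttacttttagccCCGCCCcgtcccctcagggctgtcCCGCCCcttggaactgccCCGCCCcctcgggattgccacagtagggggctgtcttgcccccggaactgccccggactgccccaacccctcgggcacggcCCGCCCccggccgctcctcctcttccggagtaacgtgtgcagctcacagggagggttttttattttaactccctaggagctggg
4632428C04Rik: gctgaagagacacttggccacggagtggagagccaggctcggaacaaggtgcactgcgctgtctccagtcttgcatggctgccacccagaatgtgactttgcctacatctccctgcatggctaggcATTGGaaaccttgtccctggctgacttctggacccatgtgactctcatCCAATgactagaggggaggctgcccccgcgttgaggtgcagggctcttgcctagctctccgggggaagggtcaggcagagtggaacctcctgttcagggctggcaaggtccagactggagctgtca
A730036I17Rik: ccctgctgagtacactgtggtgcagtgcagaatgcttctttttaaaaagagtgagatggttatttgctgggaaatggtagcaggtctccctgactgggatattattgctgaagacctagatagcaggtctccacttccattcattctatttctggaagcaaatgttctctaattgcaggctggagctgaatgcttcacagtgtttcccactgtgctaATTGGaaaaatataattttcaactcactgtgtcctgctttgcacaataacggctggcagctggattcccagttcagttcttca
The GC contents of these windows were 69.7%, 66.0%, 59.3% and 43.7% in that order. The first 2 hold GC boxes, each read as CCGCCC on the strand shown, and the window of Gm20554 also holds ATTGG, the reverse complement of CCAAT, whereas the window of 4632428C04Rik holds CCAAT on both strands and that of A730036I17Rik holds it on the reverse strand only.

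Several gene models lay at loci known for development or imprinting. 4930519A11Rik, at 1.99, and Gm35208, at 1.70 in the authors' deposited table, lie on either side of Mycn, the N-myc proto-oncogene of progenitor growth, on chromosome 12. They run on the plus strand from 12902720 to 12907378 and from 12987317 to 12994199, and Mycn lies between them on the minus strand, 28714 bases from the first and 45402 bases from the second. They were the only lincRNA genes with another lincRNA gene of the tables within 500 kb, and both were higher. Mycn itself was not in the tables.

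Gm33148, at 1.92 in the authors' deposited table, lies in the imprinted interval between H19, a growth-restraining non-coding RNA gene, and Igf2, a fetal growth factor gene. It runs on chromosome 7 from 142591744 to 142620804 on the plus strand, starts 13601 bases from the H19 start and ends 29961 bases before the end of Igf2. Gm26945, at -1.51 in the authors' deposited table, has 1 exon block on chromosome 12 from 109640341 to 109642351, inside Rian, a maternally expressed host of small nucleolar RNAs in the Dlk1-Dio3 imprinted cluster. It lies on the same strand as Rian, shares no base with Rian's annotated exons, and holds the small nucleolar RNA gene Gm24899. Whether reads of Rian introns or of Gm24899 entered the value of Gm26945 was not tested. H19, Igf2, Rian and Meg3 were not in the tables. The 2 imprinted loci were thus represented by 1 higher and 1 lower gene model.

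Gm26953, at -1.75 in the authors' deposited table, runs across Miat, a nuclear non-coding RNA of neurons, on the opposite strand of chromosome 5, and 2260 of its 4532 exonic bases overlap exons of Miat. Gm26755, at -1.69 in the authors' deposited table, overlaps Neurod1, a neurogenic helix-loop-helix factor gene, by 154 exonic bases on the opposite strand. Neither Miat nor Neurod1 was in the tables. Whether the authors counted by strand is not given in the sources used here, so reads of such opposite-strand pairs may not be separable.

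**Figure D4:**
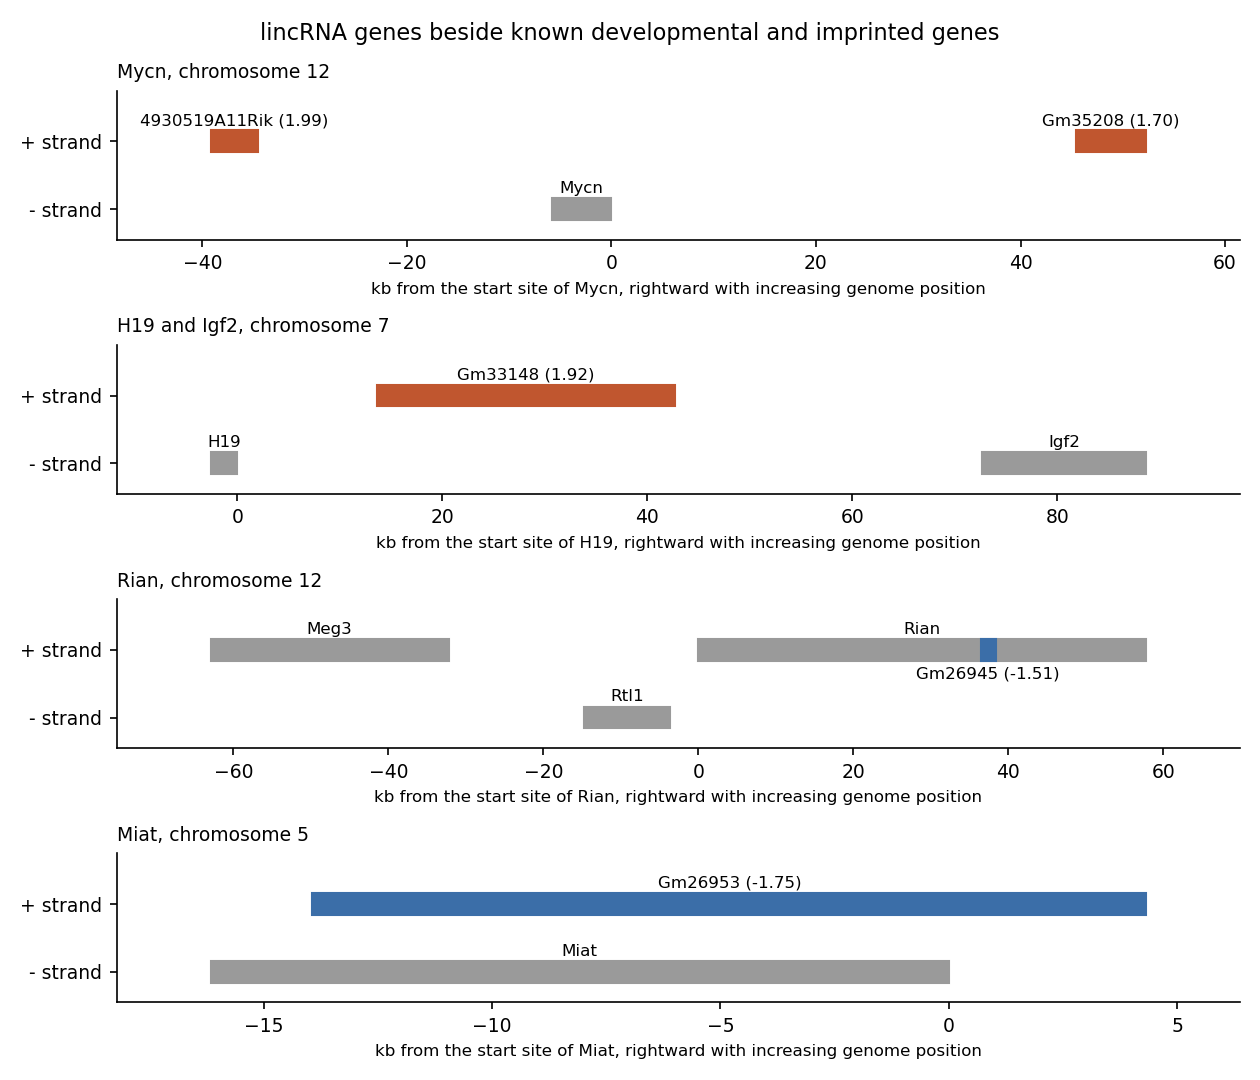
Gene bodies at 4 loci, placed by strand (vertical axis) and by distance in kb from the start site of the named anchor gene (horizontal axis); blue marks lower and red marks higher lincRNA genes with their deposited values in brackets, and grey marks genes not in the tables. Both lincRNA genes at Mycn and the one between H19 and Igf2 were higher, and those in Rian and across Miat were lower.

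Although typed as intergenic, 43 of the 93 genes overlapped the body of another annotated gene, 35 of them at least in part on the opposite strand and 11 on the same strand. A protein-coding gene was overlapped by 18, of which 12 were lower and 6 higher, and 13 of the 18 shared exon bases with it. How often annotated lincRNA genes in general overlap another gene was not counted. None of the 22 coding genes overlapped was in the tables, beside 2.51% of annotated protein-coding symbols. Gm43913, described above, does not overlap Sinhcaf but begins 499 bases beyond its end on the same strand, and whether reads running past Sinhcaf entered its value was not tested.

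Another listed gene lay within 100 kb of 11 of the 93 genes, in 10 distinct pairs, and in 4 of these pairs both genes had the same direction. In the closest pair the authors' deposited tables gave -2.87 for Gm20005 and 1.95 for the processed pseudogene Gm5566, 12974 bases away. Next was 4930512J16Rik at -1.52 with the antisense gene Gm26811 at 2.03 in the authors' deposited tables, 18904 bases apart. After these came 1700028I16Rik at 1.52 with Gm38560, a bidirectional promoter non-coding gene, at 1.93 in the authors' deposited tables, 21490 bases apart and with the same direction. Abhd15, a protein-coding gene at 1.62, lay 23711 bases from 2210008F06Rik at -2.58 in the authors' deposited tables. Within 500 kb, 33 of 56 distinct pairs had the same direction, and no pair lay within 10 kb. Of all listed symbols with 1 direction, 63.7% were lower and 36.3% higher, so unrelated pairs often share a direction too. The same counts were not made for the other listed genes, and these pairs are a description only.

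Some of the gene models share long stretches with genes elsewhere, so their values may hold reads from more than 1 locus. At least 200 aligned bases with 95% identity or more were shared with a gene outside their own locus by 13 of the 93 genes, 9 lower and 4 higher. Other annotated lincRNA genes were not compared in this way, so no general share can be set beside this count. Gm26525, at 1.87 in the authors' deposited table, matched Gm26867 over 3616 bases, its whole transcript, at 99.5% identity. Gm45558, at -2.28 in the authors' deposited table, matched Gm45557 over 1639 bases at 96.2%. Gm40977, at -1.77 in the authors' deposited table, matched the zinc finger gene Zfp934 over 821 bases at 98.2%. RefSeq types Gm40977 as a pseudogene, whereas GENCODE M21 types it as lincRNA. Gm45827, at 1.91, matched Gm44017, which was lower at -2.25 in the authors' deposited tables, over 311 bases at 97.1%, the only such match to another listed gene. No 2 of these 93 genes matched each other in this way, and AL732506.1 was not compared.

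Gm27000, at -2.36 in the authors' deposited table, is a single-exon model on chromosome X from 88759471 to 88760312 whose whole 842-base transcript matches Meg3, the imprinted non-coding RNA of chromosome 12. The sequences are the same at 841 positions, and the 1 difference is G162A, with the Meg3 base first and positions counted from the 5′ end of Gm27000. The 61 bases around it are shown 5′ to 3′ from the GENCODE transcripts, with the differing base in capitals.
Gm27000: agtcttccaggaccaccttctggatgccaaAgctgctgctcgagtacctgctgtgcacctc
Meg3: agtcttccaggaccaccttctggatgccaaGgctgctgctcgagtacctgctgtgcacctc
Reads from Gm27000 and Meg3 can be told apart only at that base or outside the shared stretch. Meg3 was not in the tables.

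MicroRNA genes with a RefSeq sequence lay inside 2 of the genes, on the same strand. miR-1906 lies in the stretch of Gm27000 that matches Meg3, on chromosome X from 88759485 to 88759506. The microRNA gene there is Mir1906-2, and the same bases occur in the matching stretch of Meg3 on chromosome 12. miR-5103 lies in Gm37233, listed as higher at 1.60 in the authors' deposited table, on chromosome 1 from 34433130 to 34433149. Their mature sequences are given from RefSeq (GRCm38.p6) with the seed, bases 2 to 8, in capitals, because their hosts are among the listed genes. Mir124-2hg also hosts a microRNA, as described above, and no sequence is shown for it.
miR-1906: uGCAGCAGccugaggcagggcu
miR-5103: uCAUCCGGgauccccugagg
The seeds differ, and the mature microRNAs have no value in the tables.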

How the data were processed

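Total RNA of 4 samples, 2 per group, went into Illumina TruSeq RNA libraries, per the labels' protocols. The submitters' processing notes name TopHat2, Cuffdiff and mm10. Not given in the sources used here: versions, annotation, strand setting, test and threshold. Since the authors' column headers state no scale, their deposited fold change was treated as a score. The smallest absolute value was 1.50027. Depth is unknown, so no precision can be given.

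Symbols were made distinct, and 1 symbol found in both tables, Tex16, was left out of counts by direction. Positions came from GENCODE M21 (GRCm38, the assembly also called mm10), matched by symbol and gene type. Distances are between nearest ends unless starts are named. Transcripts were compared with BLAST 2.17.0 (megablast, at least 95% identity over 200 bases). Functions for intervals were tested on simulated data. Planned tests per library could not be run, and no other test was made. The members and lists were chosen with earlier results of these data known. Named genes are every named lincRNA gene, the 10 most negative and 10 most positive unnamed models, and any within 10 kb of another listed gene (none). Others were chosen after their values were seen. Alternatives changed the minimum value, gene type source, naming, row counting, Six3os1 and distance. The software was Python 3.11.15 with scipy 1.17.1, pandas 2.3.3, matplotlib 3.10.9 and numpy 2.4.6. Nothing says whether replicates were separate cultures.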

Additional observations from a re-analysis of the deposited data

How the results depend on the processing

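With absolute values of at least 2, 31 lincRNA genes were lower and 5 higher (13.9% higher), and the medians became 2.37 for lower and 2.17 for higher genes. That setting keeps the larger values by construction. With named genes only, the clone identifier AL732506.1 counted among the lower ones, 2 were lower and 2 higher (50%). The 38.3% share of higher genes otherwise ranged from 31.2% without values from 1.9 to under 2 to 39.1% with the gene types of GENCODE M21. Lower counts otherwise ran from 55 to 59 and higher counts from 25 to 37, the latter with Six3os1, typed as processed_transcript, or with every row counted. A listed gene lay within 20 kb of 2 genes and within 500 kb of 43, and 0 had one within 100 kb when both values had to be at least 2. On the same strand only, 11 genes overlapped another gene, and on the opposite strand only, 35. Those counts follow from the narrower or wider definitions.

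No paired analysis was possible because each deposited table gives 1 value per row and none per library. Other normalizations, filters, pseudocounts and fits without a replicate were not run on that account. The unknown depth leaves its limits unstated.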
